A study of Mus musculus with 18 samples.

Results

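The 37 genes encoded by mitochondrial DNA were followed in 18 mouse liver RNA-seq libraries. They are the rows of the deposited count table whose symbol starts with mt-, 37 of 52636 rows. The set holds 2 ribosomal RNA genes, 13 protein-coding genes and 22 transfer RNA genes, and all 37 are annotated on chrM by GENCODE M21 for the mm10 build. A gene had to pass a filter on low counts to be tested, and 14 members passed: mt-Rnr1, mt-Rnr2, mt-Nd1, mt-Nd2, mt-Nd4, mt-Nd5, mt-Nd6, mt-Co1, mt-Co2, mt-Co3, mt-Atp6, mt-Cytb and the tRNA genes mt-Tc and mt-Tp.

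The libraries fall into 6 groups of 3. H-KO and H-WT mice were 10 weeks old and came from a line that carries Hnf4atm1.1Gonz, a conditional allele of the hepatocyte nuclear receptor gene Hnf4a. BH-KO and BH-WT mice were 10 weeks old and came from a line that carries Hnf4atm1.1Gonz together with Arntltm1Weit, a conditional allele of the clock activator gene Arntl (Bmal1). BH-HF-KO and BH-HF-WT mice were of the same line as the BH groups, 45 weeks old, after 35 weeks of high-fat diet begun at 10 weeks. The strain labels of all 6 groups include Albtm1(cre/ERT2)Mtz, a tamoxifen-activated Cre expressed from the albumin gene and so directed to hepatocytes, and tamoxifen (10 mg/mL) was given to all mice on 5 days at 8 weeks of age. The strain labels do not differ between KO and WT mice of a line, and the sources used here do not give what distinguished WT mice. The BH-HF groups differ from the BH groups in age and diet at once, and these cannot be told apart. Total RNA came from frozen livers, all taken at ZT8. In whole liver, fewer cells of a type and less RNA per cell cannot be told apart.

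Mitochondrial DNA is a small circular genome present in many copies per cell. It encodes both ribosomal RNAs of the mitochondrial ribosome, a set of tRNAs, and core subunits of complexes I, III and IV of the respiratory chain and of ATP synthase (complex V). All other subunits, and the proteins that copy, transcribe and process mitochondrial DNA and RNA, come from nuclear genes. Both strands are transcribed into long precursors that are cut largely at the tRNAs lying between the other genes, and hepatocytes are rich in mitochondria.

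The protein-coding members split into 2 sets by their counts. Over the 18 libraries, mt-Nd1, mt-Nd2, mt-Nd4, mt-Nd5, mt-Nd6, mt-Co1 and mt-Cytb had between 9432 counts (mt-Nd6) and 289249 counts (mt-Co1) per library. The other 6, mt-Co2, mt-Co3, mt-Atp6, mt-Atp8, mt-Nd3 and mt-Nd4l, had 0 to 90 counts and together held 0.0143% to 0.0470% of the mitochondrial counts of a library. These 6 genes lie wholly within chrM:6390-11042, a stretch of 4653 bases. Chromosome 1 carries 7 annotated unprocessed pseudogenes in chr1:24611535-24616197, on the minus strand, that match genes of that stretch with at most 1 mismatch each. Gm28661 matches 681 of the 684 bases of mt-Co2, Gm10925 matches 678 of the 681 of mt-Atp6, Gm28437 matches 783 of the 784 of mt-Co3, and Gm10222 matches 294 of the 297 of mt-Nd4l. Gm28438 matches 345 of the 348 bases of mt-Nd3 with the mismatch T3C, counted from the first base of mt-Nd3. Gm29216 matches the last 483 bases of mt-Co1 with the mismatch A1066T, counted from its first base, and Gm28439 matches the first 876 of the 1378 bases of mt-Nd4. mt-Atp8 has no annotated copy of its own but lies in the same stretch. Less close matches lay on other chromosomes, among them Gm13340 on chromosome 2 (65 to 221 counts per library). It matches mt-Co1 over all 1545 bases with 37 mismatches.

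The following sequences, from the GENCODE M21 transcripts for mm10, show how little separates these genes from their copies. The first pair is the first 60 bases of mt-Nd3 (chrM:9459-9518, plus strand) and of its copy Gm28438 (chr1:24613060-24613119, minus strand), with the 1 differing base in capitals. The second pair is the first 60 bases of mt-Co2 (chrM:7013-7072, plus strand) and of Gm28661 (chr1:24615506-24615565, minus strand), which are identical. The last is chrM:11013-11072, plus strand, bases 847 to 906 of mt-Nd4, where capitals mark the bases still shared with Gm28439 and lower case the first bases that are not.
mt-Nd3: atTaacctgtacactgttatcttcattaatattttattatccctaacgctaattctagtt
Gm28438: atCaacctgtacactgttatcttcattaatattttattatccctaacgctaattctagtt
mt-Co2: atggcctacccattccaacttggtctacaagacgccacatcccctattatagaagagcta
Gm28661: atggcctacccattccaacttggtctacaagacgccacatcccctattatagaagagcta
mt-Nd4: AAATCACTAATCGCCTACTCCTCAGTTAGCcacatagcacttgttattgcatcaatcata

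The copies themselves had few counts, 273 to 1034 per library for all 7 on chromosome 1 together. The sources used here do not give how reads with several matching places were counted, and the part of the copies in the low counts was not tested. Levels of mt-Co2, mt-Co3, mt-Atp6, mt-Atp8, mt-Nd3 and mt-Nd4l are therefore uncertain, as are levels per length of mt-Co1, of which 31.3% of the bases are shared, and mt-Nd4, of which 63.6% are shared. mt-Atp8 and mt-Atp6 also overlap each other by 43 bases on the same strand, and mt-Nd5 and mt-Nd6 overlap by 14 bases on opposite strands. The strand setting of the count is not given either.

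**Figure D1:**
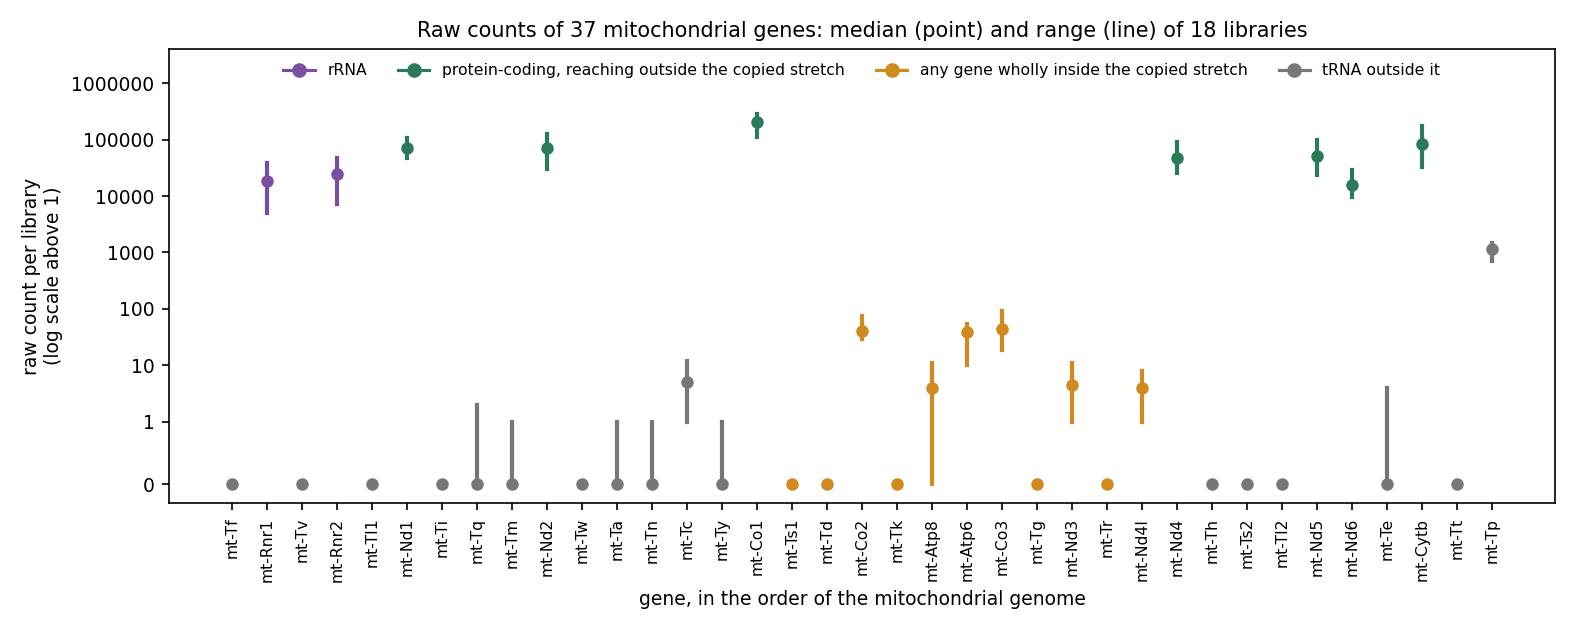
Raw count of each of the 37 genes, in the order of the mitochondrial genome, as the median (point) and the range (line) of 18 libraries on an axis that is logarithmic above 1. The 6 protein-coding genes wholly inside the copied stretch sit between 0 and 90, below the other 7, which reach from 9432 to 289249.

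The tRNA genes were close to empty, with 1 exception. Of the 22, 14 had no count in any library, and a count of 0 allows up to 3 counts, or 0.306 to 0.438 CPM (counts scaled to a common library size) of the plain total, counting error only. The genes mt-Tq, mt-Tm, mt-Ta, mt-Tn, mt-Ty and mt-Te reached at most 4 counts, and mt-Tc, the cysteine tRNA, had 1 to 12. mt-Tp, the proline tRNA on the minus strand at chrM:15356-15422, had 704 to 1483 counts in every library. Its 67 bases are shown because it was the 1 tRNA gene counted in quantity.
mt-Tp: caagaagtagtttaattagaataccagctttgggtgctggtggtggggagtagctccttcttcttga

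Total counts were 6846471 to 9816124 per library. BH-KO replicate 1 stood apart from its group. Its log2 CPM correlated at 0.904 and 0.905 with BH-KO replicates 2 and 3, which correlated at 0.980 with each other. Counts of mitochondrial genes called in BH-KO are given with and without it. Other BH-KO values include it unless stated otherwise. Gene-level counts did not check the KO labels, since they cover whole genes and a deletion of some exons need not lower them. Hnf4a was at 564, 657 and 555 CPM in H-KO, against 801, 887 and 580 in H-WT, and at 866, 499 and 494 CPM in BH-KO, against 788, 888 and 770 in BH-WT. It was at 842, 977 and 818 CPM in BH-HF-KO, against 767, 781 and 839 in BH-HF-WT, and the library labelled BH-KO replicate 1 lay in the range of BH-WT. Arntl was higher in the libraries labelled BH-KO, at 17.4, 22.3 and 24 CPM against 0.42, 0.734 and 0.798 in BH-WT, and it was at 0.884, 2.53 and 1.36 CPM in BH-HF-KO, against 1.02, 1.37 and 2 in BH-HF-WT. Replicate 3 of H-WT had 1082 CPM of Xist, a female-specific RNA, and no other library had more than 3.89 CPM. The liver label was matched by Alb, at 1.35% to 8.48% of the counts.

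The mitochondrial share of a library's counts was lower in H-KO than in H-WT livers. The 37 genes together took 4.46%, 4.53% and 5.18% of the counts in H-KO, against 7.59%, 8.54% and 7.42% in H-WT. The groups did not overlap, and their means were 4.72 ± 0.394% in H-KO and 7.85 ± 0.6% in H-WT (SD, n = 3 each), 0.602 times as much in H-KO. The two-sided exact permutation p was 0.1, the smallest that 3 against 3 libraries allow. In BH-KO the shares were 9.45%, 3.70% and 4.17%, against 7.20%, 7.66% and 7.65% in BH-WT. BH-KO replicates 2 and 3 lay below every BH-WT library and replicate 1 above, so the groups overlapped (5.77 ± 3.19% in BH-KO, 7.502 ± 0.261% in BH-WT, exact permutation p = 0.4). In BH-HF-KO the shares were 8.68%, 8.26% and 9.92%, against 7.499%, 7.37% and 7.82% in BH-HF-WT. Here the KO group was the higher one, without overlap (8.96 ± 0.863% in BH-HF-KO, 7.56 ± 0.232% in BH-HF-WT, exact permutation p = 0.1, the smallest possible).

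These shares are relative to the library total, which other abundant RNAs also fill. Alb alone filled 1.54 ± 0.169% of H-KO and 7.33 ± 0.491% of H-WT libraries, and the TMM scaling factors, which correct for such differences in composition, were 1.32 to 1.38 in H-KO and 0.949 to 0.950 in H-WT. Relative to the TMM-scaled total, the mitochondrial share was 3.5 ± 0.224% in H-KO and 8.27 ± 0.631% in H-WT. Between WT groups the share of the plain total overlapped: BH-WT held 7.502 ± 0.261% and H-WT 7.85 ± 0.6% (exact permutation p = 0.6), and BH-HF-WT held 7.56 ± 0.232% and BH-WT 7.502 ± 0.261% (exact permutation p = 0.7). Within the pair of BH-HF-WT and BH-WT, the mRNA share was higher (7.12 ± 0.2% in BH-HF-WT, 6.69 ± 0.144% in BH-WT) and the rRNA share lower (0.432 ± 0.0322% in BH-HF-WT, 0.8001 ± 0.187% in BH-WT), and the whole share of the TMM-scaled total was higher (8.702 ± 0.363% in BH-HF-WT, 8.235 ± 0.145% in BH-WT). None of these 3 overlapped (exact permutation p = 0.1 each, the smallest possible).

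**Figure D2:**
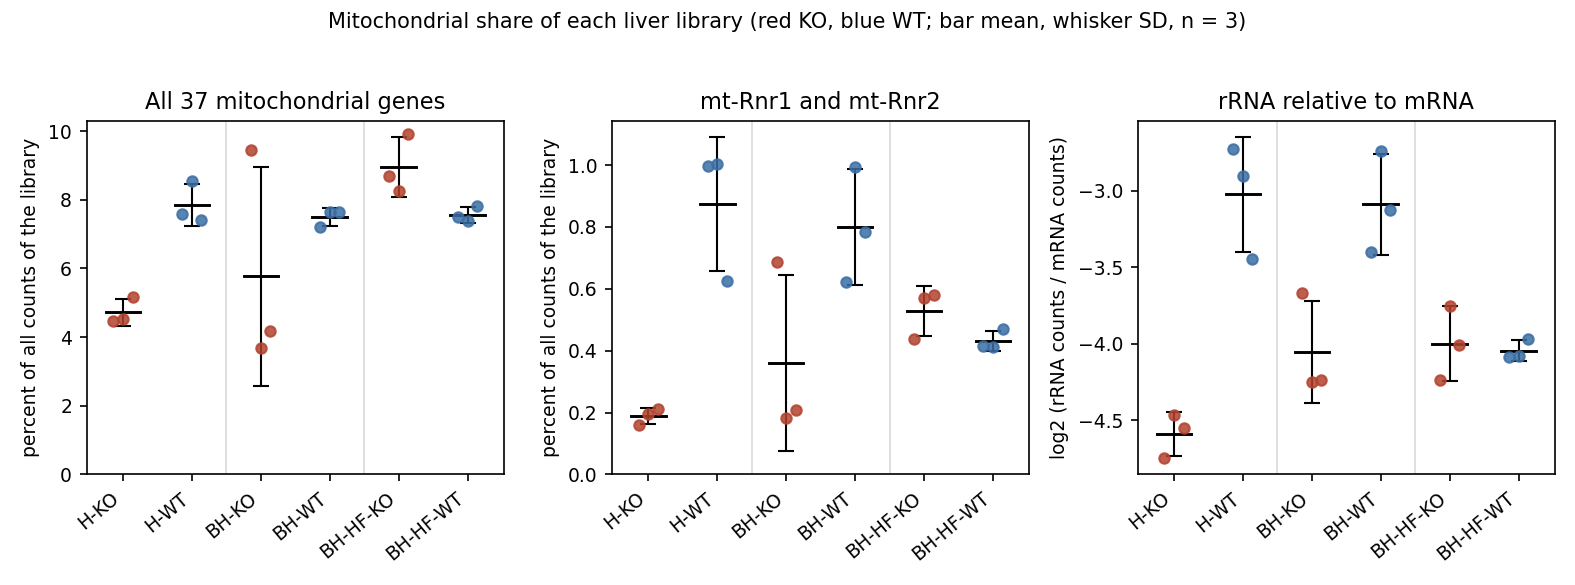
Share of all counts in the 37 mitochondrial genes (left) and in mt-Rnr1 and mt-Rnr2 (middle), in percent, and the log2 ratio of mitochondrial rRNA to mRNA counts (right), per library, with the group mean and SD (n = 3). H-KO sits below H-WT without overlap in all 3 panels, BH-KO replicate 1 sits above the other BH-KO libraries, and BH-HF-KO sits above BH-HF-WT without overlap in the left panel.

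The ribosomal RNA genes mt-Rnr1 (12S, chrM:70-1024) and mt-Rnr2 (16S, chrM:1094-2675) showed the widest difference in H-KO. mt-Rnr1 was at 491, 569 and 628 CPM in H-KO, against 4479, 4821 and 2838 CPM in H-WT (CPM of genes are relative to the TMM-scaled total). mt-Rnr2 was at 719, 876 and 901 CPM in H-KO, against 6007, 5742 and 3734 CPM in H-WT. For both genes each H-KO library lay far below each H-WT library. mt-Rnr1 fell by 2.85 ± 0.624 (log2 fold change ± SE, adjusted p = 0.00272) and mt-Rnr2 fell by 2.63 ± 0.412 (adjusted p = 0.000243; edgeR quasi-likelihood test with Benjamini-Hochberg adjustment over 13958 genes). That is 7.19 and 6.20 times lower in H-KO than in H-WT.

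In BH-KO, mt-Rnr1 was at 4195, 500.1 and 534 CPM, against 3406, 4784 and 4340 CPM in BH-WT, so replicate 1 lay among the BH-WT libraries. mt-Rnr2 was at 3628, 964 and 1077 CPM in BH-KO, against 3737, 5696 and 4236 CPM in BH-WT, without overlap. mt-Rnr2 fell (log2 fold change -1.27 ± 0.394, adjusted p = 0.0253) and mt-Rnr1 did not pass (-1.26 ± 0.591, adjusted p = 0.121; both by the edgeR quasi-likelihood test with Benjamini-Hochberg adjustment). The mt-Rnr2 call held in 3 of the 6 fits that left out 1 library, and was lost without BH-KO replicates 2 or 3 or BH-WT replicate 2, with no low-count filter, and with the BH-KO and BH-WT libraries fitted alone. Without BH-KO replicate 1 the log2 fold changes were -3.02 ± 0.271 for mt-Rnr1 and -2.16 ± 0.243 for mt-Rnr2. In BH-HF-KO, mt-Rnr1 was at 2164, 3435 and 2749 CPM, against 2090, 1842 and 2474 CPM in BH-HF-WT, and mt-Rnr2 at 2701, 3434 and 3684 CPM in BH-HF-KO, against 2542, 2991 and 2971 CPM in BH-HF-WT. Both genes overlapped between the BH-HF groups, with log2 fold changes of 0.38 ± 0.583 and 0.21 ± 0.388 (adjusted p = 1 for each, edgeR quasi-likelihood test with Benjamini-Hochberg adjustment).

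The rRNA genes also differed relative to the mRNAs of the same library, a ratio that needs no scaling between libraries. The log2 ratio of rRNA to mRNA counts was -4.59 ± 0.143 in H-KO and -3.02 ± 0.374 in H-WT, and -4.05 ± 0.335 in BH-KO and -3.09 ± 0.332 in BH-WT, without overlap in either pair and with replicate 1 included in BH-KO. It was -4.00 ± 0.243 in BH-HF-KO livers and -4.05 ± 0.0671 in BH-HF-WT, which overlapped. Permuting the KO and WT labels within the 3 settings gave a mean difference of -0.83 (two-sided exact permutation p = 0.0045, adjusted over 4 such measures 0.018), and -0.89 without BH-KO replicate 1 (exact permutation p = 0.00475, adjusted 0.0115). The same exact permutation test gave -1.10 for the log2 rRNA share of the library (p = 0.0152, adjusted 0.0304), -0.27 for the mRNA share (p = 0.129, adjusted 0.129) and -0.34 for the whole mitochondrial share (p = 0.0853, adjusted 0.114). Without BH-KO replicate 1 the whole share gave -0.48 (exact permutation p = 0.013, adjusted 0.0165) and the mRNA share -0.41 (p = 0.0165, adjusted 0.0165).

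The WT livers differed in the same ratio by setting. It was -4.05 ± 0.0671 in BH-HF-WT and -3.09 ± 0.332 in BH-WT, without overlap (exact permutation p = 0.1, the smallest possible). mt-Rnr1 and mt-Rnr2 had log2 fold changes of -0.97 ± 0.587 (adjusted p = 0.339) and -0.69 ± 0.390 (adjusted p = 0.303) between BH-HF-WT and BH-WT by the edgeR quasi-likelihood test with Benjamini-Hochberg adjustment, and did not pass. The sources used here do not say whether rRNA was removed or polyadenylated RNA selected, and the part of such a step in the rRNA counts was not tested. CT010467.1, annotated by GENCODE as a nuclear rRNA gene, overlapped between the groups of each pair, at 2.08 ± 0.212% in H-KO livers and 1.98 ± 1.12% in H-WT livers, 1.09 ± 0.665% in BH-KO livers and 1.53 ± 0.337% in BH-WT livers, and 1.31 ± 0.48% in BH-HF-KO livers and 1.34 ± 0.556% in BH-HF-WT livers.

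The protein-coding genes were lower in H-KO than in H-WT as well, by less than the rRNA genes. Counting all 14 tested members, 11 fell and 0 rose in H-KO, against a background of 19.1% of all 13958 tested genes called lower. The median log2 fold change was -1.18 over the 14, with a range from -2.85 to -0.46, and -0.000388 over all tested genes. In 13 of the 14, mt-Tc being the exception, the 3 H-KO libraries lay below the 3 H-WT libraries, which held for 25.9% of all tested genes.

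Of the complex I genes, mt-Nd1 was at 4803, 5236 and 5289 CPM in H-KO, against 11368, 10340 and 9245 CPM in H-WT (a log2 fold change of -1.01 ± 0.331 with adjusted p = 0.0258, edgeR quasi-likelihood test with Benjamini-Hochberg adjustment, as for all adjusted p-values in this and the next paragraph). mt-Nd2 was at 3058, 3282 and 3686 CPM in H-KO, against 8392, 9675 and 7630 CPM in H-WT (-1.36 ± 0.479, adjusted p = 0.0375). Both fell, with every H-KO library below every H-WT library, but the mt-Nd2 call held in 0 and the mt-Nd1 call in 1 of the 6 fits that left out 1 library, and both were lost with plain library totals. mt-Nd4 fell by 1.12 ± 0.374 on the log2 scale, at 2848 ± 129 CPM in H-KO and 6209 ± 718 CPM in H-WT (adjusted p = 0.0285). mt-Nd6, the only protein-coding gene on the minus strand, fell by 1.03 ± 0.364, at 1025 ± 13.4 CPM in H-KO and 2086 ± 377 CPM in H-WT (adjusted p = 0.0386). The mt-Nd4 and mt-Nd6 calls likewise held in 1 of the 6 fits each and were lost with plain library totals. mt-Nd5 did not pass, at 3153 ± 331 CPM in H-KO and 6239 ± 449 CPM in H-WT (-0.98 ± 0.414, adjusted p = 0.0763).

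mt-Cytb, the complex III subunit, had the largest fall among the protein-coding genes. It was at 3545, 3550 and 3932 CPM in H-KO, against 9236, 13329 and 11717 CPM in H-WT, and fell by 1.64 ± 0.418 on the log2 scale (adjusted p = 0.00668). mt-Co1, the catalytic subunit of complex IV and the most abundant member, was at 14048, 13320 and 15605 CPM in H-KO, against 27205, 30258 and 27849 CPM in H-WT (-0.99 ± 0.316, adjusted p = 0.0234). Neither gene overlapped between the groups, but the mt-Co1 call held in 3 of the 6 fits that left out 1 library and was lost with plain library totals. The complex IV genes mt-Co2 and mt-Co3 and the ATP synthase gene mt-Atp6 also passed, with log2 fold changes of -1.12, -1.47 and -1.56, on 10 to 90 counts per H-KO or H-WT library and on bases that their nuclear copies share. Of the 7 copies on chromosome 1, Gm29216, Gm28437, Gm28438 and Gm28439 fell in H-KO too (adjusted p between 0.0101 and 0.0182), and Gm28661, Gm10925 and Gm10222 did not pass. mt-Atp8, mt-Nd3 and mt-Nd4l were too low to test, at 0 to 11 counts per library over the 18 libraries. The tRNA gene mt-Tp was at 121 ± 14.6 CPM in H-KO and 166 ± 2.71 CPM in H-WT and did not pass (-0.46 ± 0.277, adjusted p = 0.22, and 0.05 with plain library totals), and nor did mt-Tc (-1.23 ± 0.812, adjusted p = 0.259).

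The H-KO count depends on scaling and on single libraries. With plain library totals, which move the median of all tested genes to 0.50 and their split to 5992 higher and 1294 lower (2208 and 2662 with TMM), 3 mitochondrial genes passed: mt-Rnr1 (-2.34), mt-Rnr2 (-2.13) and mt-Cytb (-1.13). Upper-quartile scaling moved the median of all tested genes to 0.15 and the split to 3338 higher and 2063 lower. Leaving out H-KO replicate 1 gave 3 calls, where 2182 of all 14337 tested genes were called lower. H-KO replicates 2 or 3 or H-WT replicate 2 gave 6 each, H-WT replicate 3, the library with Xist, gave 5, and H-WT replicate 1 gave 9. Over all tested genes, the fits called from 2147 of 14339 lower (without H-KO replicate 2) to 2453 of 14397 (without H-WT replicate 1). mt-Rnr1, mt-Rnr2 and mt-Cytb passed in all 6 of these fits.

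**Figure D3:**
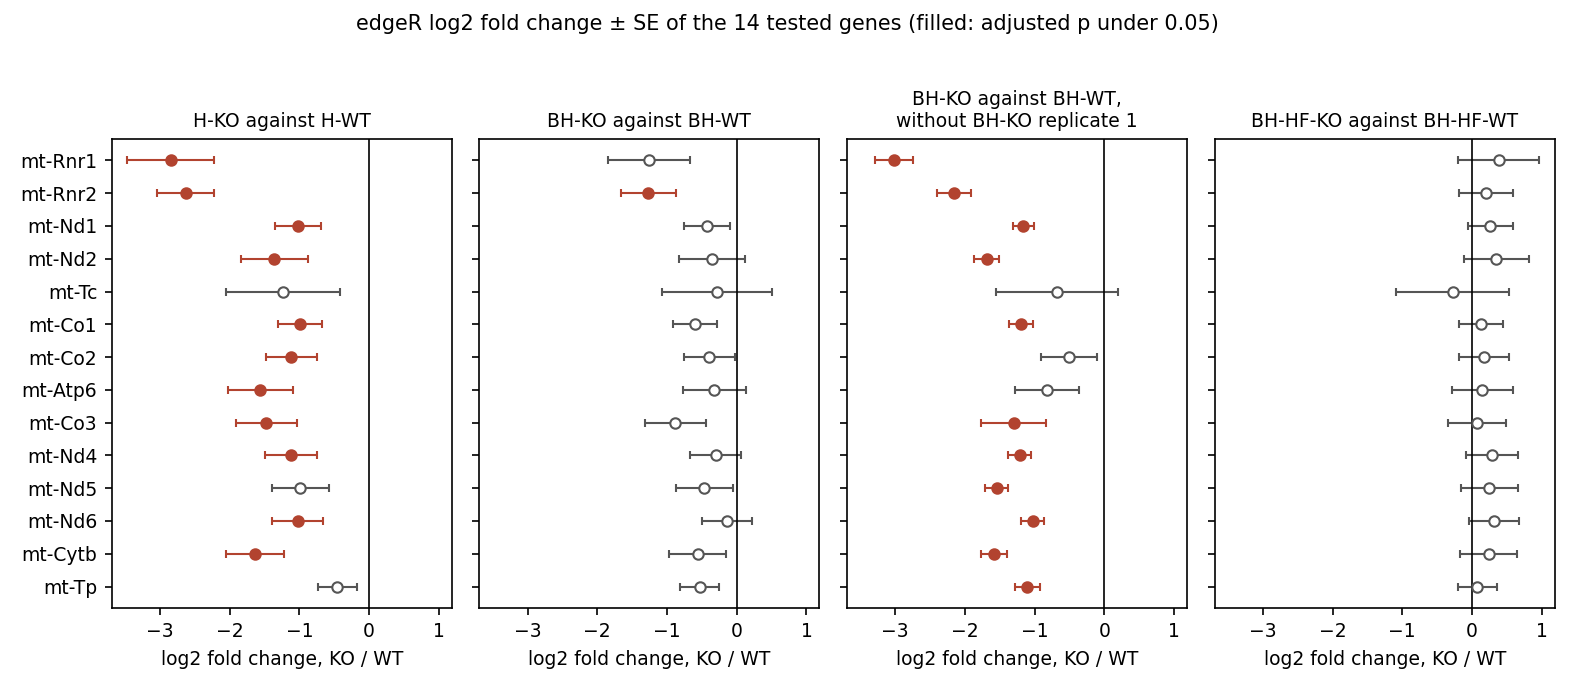
log2 fold change (point) and SE (bar) of the 14 tested mitochondrial genes in each KO group against its WT group, with genes at an adjusted p under 0.05 filled. In H-KO 11 genes are filled, in BH-KO 1 with all libraries and 11 without BH-KO replicate 1, and in BH-HF-KO 0.

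In BH-KO, 1 of the 14 tested members fell (mt-Rnr2) and 0 rose, with 14.2% of all tested genes called lower. All 14 log2 fold changes were below 0, with a median of -0.45 and a range from -1.27 to -0.13. Over all tested genes the median was 0.03, with 2005 called higher and 1985 lower. Plain library totals moved these to 0.35, 4343 and 1204, and upper-quartile scaling to 0.11, 2560 and 1720. The 3 BH-KO libraries were far apart. For mt-Co1 the BH-KO libraries were at 29386, 10782 and 12626 CPM, against 28569, 23715 and 27958 CPM in BH-WT. For mt-Cytb they were at 15716, 3654 and 3983 CPM, against 11938, 10422 and 12013 CPM in BH-WT, and for mt-Nd2 at 17181, 3041 and 3169 CPM, against 9761, 10769 and 9431 CPM in BH-WT. Replicate 1 was above every BH-WT library for these 3 genes, and replicates 2 and 3 were below every BH-WT library.

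Without BH-KO replicate 1, 11 of the 14 fell, with 21.6% of the genes tested in that fit called lower and a median log2 fold change of -1.21. mt-Nd2 then had a log2 fold change of -1.69 ± 0.182 (adjusted p = 2.36e-06), mt-Cytb -1.59 ± 0.184 (adjusted p = 5.17e-06) and mt-Co1 -1.19 ± 0.176 (adjusted p = 6.22e-05), by the edgeR quasi-likelihood test with Benjamini-Hochberg adjustment. mt-Nd5 and mt-Tp were among the 11 here and not in H-KO, and mt-Co2 and mt-Atp6 were not. The KO effect in BH minus that in H called 0 of the 14 with all libraries (6.09% of all genes called), with 1 at an unadjusted p under 0.05, and 0 without BH-KO replicate 1 (8.66% of the genes tested in that fit called), with 2 at an unadjusted p under 0.05. DESeq2 and limma-voom called 0 as well.

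In BH-HF-KO, 0 of the 14 passed the edgeR quasi-likelihood test, and 0% of all 13958 genes were called. DESeq2 and limma-voom also called 0 of the 14, and 0 had an unadjusted p under 0.05. The log2 fold changes ran from -0.28 to 0.38 with a median of 0.22. In 7 of the 14, mt-Nd1, mt-Nd2, mt-Nd4, mt-Nd5, mt-Nd6, mt-Co1 and mt-Cytb, every BH-HF-KO library was above every BH-HF-WT library, which held for 5.67% of all tested genes. mt-Cytb was at 16766, 17220 and 19599 CPM in BH-HF-KO, against 15167, 14921 and 15313 CPM in BH-HF-WT (0.24 ± 0.408). mt-Nd6 was at 3288, 3129 and 3345 CPM in BH-HF-KO, against 2324, 2830 and 2664 CPM in BH-HF-WT (0.32 ± 0.361).

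The KO effect in BH-HF minus that in BH called 0 of the 14 with all libraries (6.1% of all genes called), with 1 at an unadjusted p under 0.05 and 0 called by DESeq2 or limma-voom. Without BH-KO replicate 1 it called 10 higher (12.2% of all genes called higher in that fit), led by mt-Rnr1 (log2 difference 3.40 ± 0.336) and mt-Rnr2 (2.37 ± 0.309). Between WT groups, 0 of the 14 passed in BH-WT against H-WT (0.165% of all genes called) and 0 in BH-HF-WT against BH-WT (6.99% of all genes called), with 0 at an unadjusted p under 0.05 in either by edgeR and 0 called by DESeq2 or limma-voom. Fitting BH-HF-WT and BH-WT alone called 1, mt-Rnr1 (-0.97), where 6.89% of the genes tested in that fit were called. The comparisons of BH-WT with BH-KO, H-WT and BH-HF-WT share the BH-WT libraries.

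The make-up of the mitochondrial counts shifted with these differences. mt-Co1 held 41.5%, 39.7% and 41.5% of the mitochondrial counts in H-KO, against 34.0%, 33.7% and 35.6% in H-WT. mt-Cytb held 10.46%, 10.58% and 10.46% in H-KO, against 11.56%, 14.83% and 14.98% in H-WT. mt-Rnr1 held 1.45%, 1.70% and 1.67% in H-KO, against 5.60%, 5.36% and 3.63% in H-WT. None of these 3 overlapped, mt-Co1 being higher and the other 2 lower in H-KO (exact permutation p = 0.1 each, the smallest possible).

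Summed by complex, the counts of complex IV rest on mt-Co1 and those of complex III on mt-Cytb, since mt-Co2 and mt-Co3 had at most 90 counts, and complex V is close to absent. Complex IV genes took 42.8 ± 0.963% of the mitochondrial mRNA counts in H-KO livers and 38.8 ± 0.545% in H-WT, and complex III 10.98 ± 0.107% in H-KO and 15.5 ± 1.91% in H-WT, without overlap. Complex I took 46.3 ± 0.862% in H-KO and 45.6 ± 1.51% in H-WT, with overlap. Complex IV overlapped between the BH pair, at 36.6 ± 6.23% in BH-KO livers and 36.4 ± 2.19% in BH-WT livers. BH-KO replicate 1 was at 29.6%, below every BH-WT library, and replicates 2 and 3 were at 38.6% and 41.5%, above every BH-WT library. In the high-fat setting the direction of complex IV was opposite to that in H-KO, at 32.2 ± 0.645% in BH-HF-KO livers and 34.3 ± 0.355% in BH-HF-WT, without overlap. Complex III overlapped there (18.6 ± 0.318% in BH-HF-KO, 18.5 ± 0.664% in BH-HF-WT). Between settings, mt-Cytb held 17.4 ± 0.664% of the mitochondrial counts in BH-HF-WT and 13.9 ± 0.860% in BH-WT, and mt-Nd5 held 11.03 ± 0.578% in BH-HF-WT and 8.65 ± 0.436% in BH-WT. mt-Nd1 was lower, at 10.9 ± 0.493% in BH-HF-WT and 12.2 ± 0.460% in BH-WT, and none of these 3 overlapped (exact permutation p = 0.1 each). The tRNA share of all counts, nearly all of it mt-Tp, overlapped in every comparison, at 0.0164 ± 0.00175% in H-KO and 0.0159 ± 0.000191% in H-WT. Of the mitochondrial counts alone, mt-Tp held 0.346 ± 0.0469% in H-KO and 0.202 ± 0.0163% in H-WT, without overlap.

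**Figure D4:**
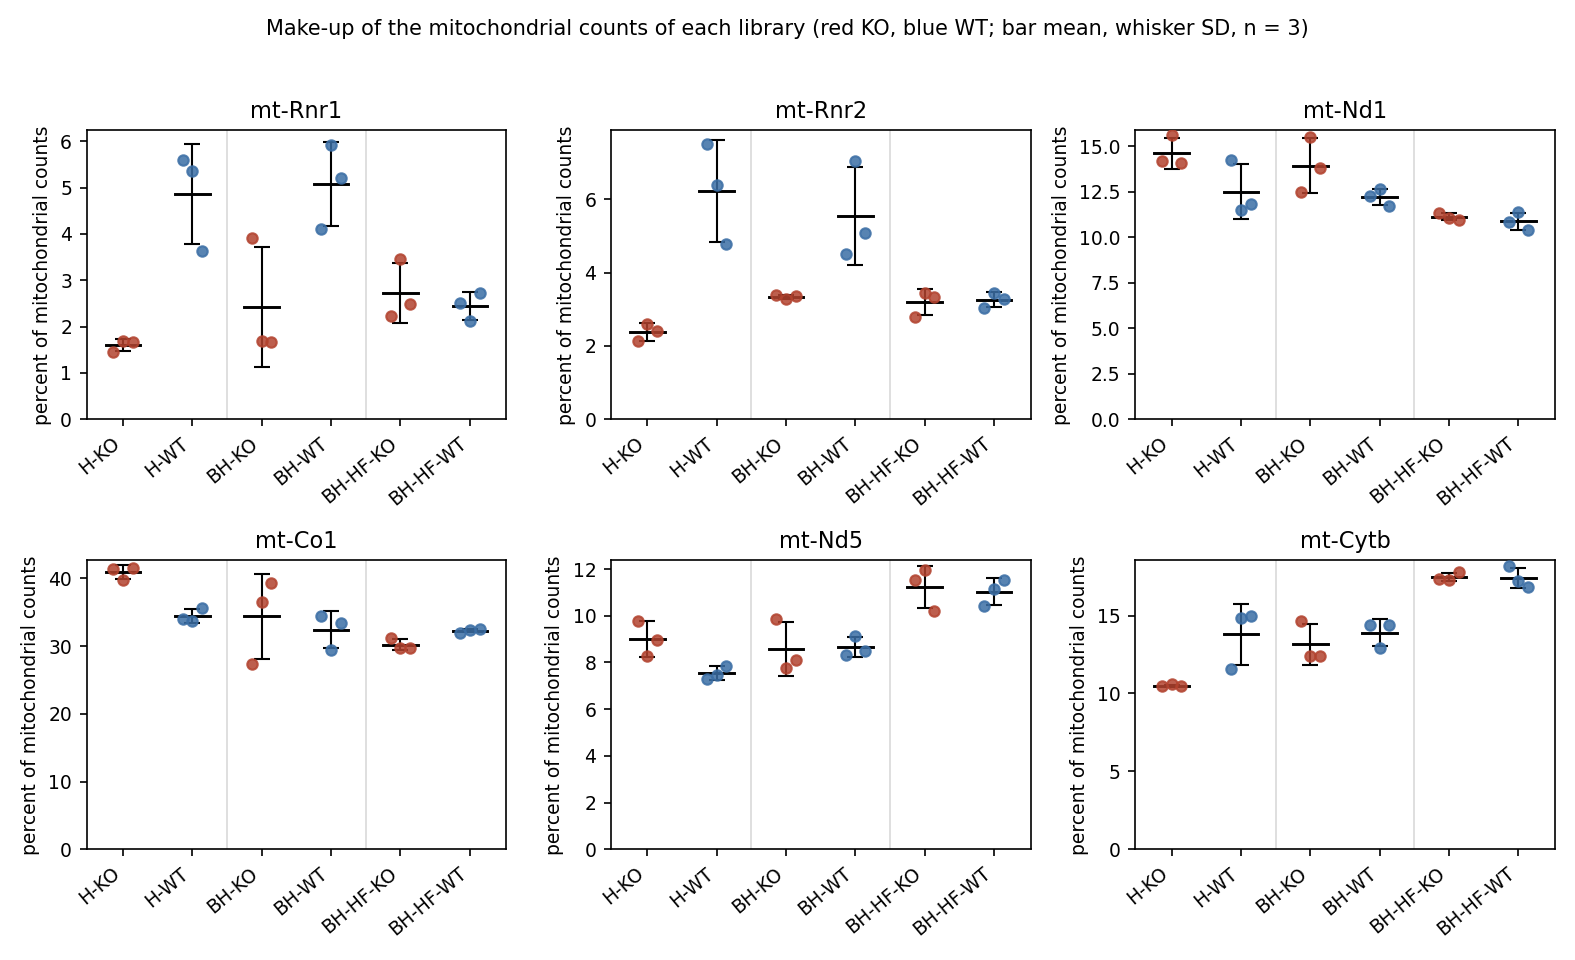
Percent of the mitochondrial counts of each library in mt-Rnr1, mt-Rnr2, mt-Nd1, mt-Co1, mt-Nd5 and mt-Cytb, per library, with the group mean and SD (n = 3). mt-Co1 lies between 39.7% and 41.5% in H-KO and between 33.7% and 35.6% in H-WT, and mt-Rnr1 and mt-Rnr2 are lower in H-KO and in BH-KO than in their WT groups without overlap.

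Counts per length, in CPM per kilobase, order the genes as counted. Since rRNA removal, poly(A) selection and the strand setting are not given, the order of rRNA genes against mRNAs, and of minus-strand mt-Nd6 against the others, need not be that of their RNA levels. In H-KO, mt-Co1 was at 9272, mt-Nd1 at 5339, mt-Nd2 at 3220, mt-Cytb at 3213, mt-Nd4 at 2067, mt-Nd6 at 1974, mt-Nd5 at 1728, mt-Rnr1 at 589 and mt-Rnr2 at 526 CPM per kilobase. In H-WT, mt-Co1 was at 18406, mt-Nd1 at 10781, mt-Cytb at 9989, mt-Nd2 at 8252, mt-Nd4 at 4506, mt-Rnr1 at 4237, mt-Nd6 at 4019, mt-Nd5 at 3420 and mt-Rnr2 at 3262 CPM per kilobase. By these counts the rRNA genes were the lowest 2 of the 9 well-counted genes in H-KO, whereas in H-WT mt-Rnr1 stood above mt-Nd6 and mt-Nd5. Over the bases not shared with a chromosome 1 copy, mt-Nd4 stood at 5673 CPM per kilobase in H-KO and 12369 in H-WT, above mt-Nd1, and mt-Co1 at 13488 in H-KO and 26777 in H-WT.

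Nuclear genes that act on mitochondrial DNA and RNA were described alongside. In H-KO, 0 of 10 genes of mitochondrial transcription passed, and the smallest p was that of Mterf4, which assists mitochondrial ribosome assembly (-0.46, adjusted p = 0.0521). Over all tested genes, 15.8% were called higher and 19.1% lower in H-KO. Of 37 tested genes of mitochondrial RNA processing and stability, 5 rose and 6 fell in H-KO, close to those shares. Lrpprc, which stabilises mitochondrial mRNAs, fell to 75.3 ± 4.6 CPM in H-KO, against 144 ± 13.1 CPM in H-WT (-0.93, adjusted p = 0.00405), and Rpusd3, a pseudouridine synthase, fell as well (-0.73, adjusted p = 0.0202). Trub2, a pseudouridine synthase (0.77, adjusted p = 0.0203), and Gtpbp3, a tRNA modification enzyme (0.67, adjusted p = 0.0278), rose. Of 13 genes of mitochondrial DNA replication and nucleotide supply, 3 rose and 5 fell, among them the topoisomerase gene Top1mt (-0.91, adjusted p = 0.00358), the nuclease gene Dna2 (-1.10, adjusted p = 0.00206), the primase gene Primpol (0.89, adjusted p = 0.0212) and the ligase gene Lig3 (0.45, adjusted p = 0.0277). All adjusted p-values here are from the edgeR quasi-likelihood test with Benjamini-Hochberg adjustment. Of 9 regulators of mitochondrial biogenesis, 1 fell in H-KO, Esrra (-0.51, adjusted p = 0.0159).

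The nuclear-encoded subunits of the same complexes moved less than the mitochondrial genes did in H-KO, although the difference between the lists was not tested. Of 71 nuclear subunit genes, 1 rose (Ndufa8, 0.45), 8 fell and 62 did not pass, with a median log2 fold change of -0.23, against -1.18 over the 14 mitochondrial genes, where 15.8% of all tested genes were called higher and 19.1% lower. Ndufs6 fell by 0.65 and Atp5h by 0.63 on the log2 scale. Of 17 nuclear-encoded markers of mitochondrial mass, 1 rose (the import receptor gene Tomm20, 0.42) and 5 fell, among them Sdha (-0.83) and the superoxide dismutase gene Sod2 (-0.80), with a median of -0.17.

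In BH-KO, with replicate 1 included, 14.4% of all tested genes were called higher and 14.2% lower. Of the subunit genes, 9 of 71 rose and 1 fell, with a median of 0.12. Of the 17 mass markers 2 rose, the citrate synthase gene Cs (0.79) and Tomm20 (0.74), and 1 fell, Sod2 (-0.34). In the other lists, Mterf1a rose (1.23) among the 10 transcription genes, 7 of 37 RNA processing genes rose and 4 fell, 2 of 13 replication genes rose and 2 fell, the subunit genes Polg (-0.38) and Polg2 (-0.99) of the mitochondrial DNA polymerase, and 3 of 9 biogenesis regulators fell, with Ppargc1b at -1.57 and Esrra at -0.88. Without BH-KO replicate 1, 2808 of 14415 tested genes were called higher and 3109 lower. In that fit 12 subunit genes rose and 0 fell, and 4 mass markers rose and 1 fell. Of the RNA processing genes 9 rose and 4 fell, and of the replication genes 4 rose and 3 fell. The transcription genes (1 rose) and biogenesis regulators (3 fell) kept their counts. In BH-HF-KO none of these lists had a gene that passed, and 0 of all 13958 tested genes were called. In BH-HF-WT against BH-WT, Tfam, which packages mitochondrial DNA and starts its transcription, was at 55.6 ± 0.739 CPM in BH-HF-WT and 83.9 ± 15.3 CPM in BH-WT (-0.59, adjusted p = 0.0133, edgeR quasi-likelihood test with Benjamini-Hochberg adjustment), and Fastkd1, which acts on mitochondrial RNA stability, was at 40 ± 3.26 CPM in BH-HF-WT and 27.9 ± 6.03 CPM in BH-WT (0.52, adjusted p = 0.0448).

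Some markers of cell types moved in H-KO beside the mitochondrial genes, where 15.8% of all tested genes were called higher and 19.1% lower. Of 6 hepatocyte markers 4 fell, with summed levels of 19912 to 22841 CPM in H-KO and 90809 to 102677 CPM in H-WT, and none was at 0. The largest part of these sums was Alb, at 9821 to 12742 CPM in H-KO and 71478 to 81501 CPM in H-WT. Apoa1 (2906 to 3881 CPM in H-KO, 3364 to 3803 CPM in H-WT) and Cps1 (4268 to 5255 CPM in H-KO, 2139 to 4567 CPM in H-WT) overlapped between the groups. Of 5 tested bile duct cell markers 3 rose (summed level of all 6, 110 to 171 CPM in H-KO and 33.1 to 58.7 CPM in H-WT), of 8 stellate cell markers 2 fell (229 to 247 CPM in H-KO, 301 to 355 CPM in H-WT), of 5 red cell markers 1 fell, and of 2 tested adipocyte markers 1 rose, Cidea. None of the 9 macrophage, 7 endothelial or 3 tested lymphocyte markers passed in H-KO. In BH-KO, with replicate 1 included, 14.4% of all tested genes were called higher and 14.2% lower. There, 6 of 9 macrophage, 2 of 7 endothelial and 2 of 8 stellate cell markers fell. Of 3 tested genes of the lymphocyte list 1 fell, Ptprc, which leukocytes other than lymphocytes express as well. The summed macrophage levels overlapped, at 52.96 to 327.1 CPM in BH-KO and 253.5 to 1178 CPM in BH-WT. They spread widely between WT libraries, with 63.75 to 496.5 CPM in H-WT. Of 5 tested bile duct cell markers 2 rose (Sox9 and Spp1) and 0 fell, but the median log2 fold change of the 5 was -1.08. Without BH-KO replicate 1, 2808 of 14415 tested genes were called higher and 3109 lower. In that fit 8 macrophage, 2 endothelial and 3 stellate cell markers fell, and so did 1 gene of the lymphocyte list. Of the bile duct cell markers 2 rose and 2 fell. Of the 6 hepatocyte markers, 1 rose (Apoa1, 0.91) and 1 fell (Alb, -1.77) in BH-KO, and 1 rose and 4 fell without replicate 1. Their summed levels ran from 25649 to 68435 CPM in BH-KO, the highest being replicate 1, against 92354 to 118328 CPM in BH-WT. Most of the sum was Alb, at 13780 to 42167 CPM in BH-KO and 73029 to 97481 CPM in BH-WT. Of 4 RNAs kept in the nucleus, 1 rose in H-KO, Neat1, at 1539 ± 283 CPM in H-KO and 275 ± 170 CPM in H-WT. Malat1 did not pass, at 2386 to 3827 CPM in H-KO and 1824 to 2366 CPM in H-WT. Of the plain library totals, Malat1 filled 0.432 ± 0.105% in H-KO and 0.205 ± 0.0278% in H-WT, without overlap. In BH-KO 3 of the 4 rose, with Neat1 at 1.90 and Malat1 at 0.74 on the log2 scale, and Malat1 filled 0.246 ± 0.0554% of BH-KO and 0.117 ± 0.0218% of BH-WT libraries, without overlap. The part of cell make-up, RNA quality or nuclear RNA in the mitochondrial shares was not tested.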

How the data were processed

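RNA-seq was done on 18 liver samples in 6 groups of 3. The deposited data are raw counts for each gene, not normalized by the authors. The submitters' processing notes name STAR 2.6 and mm10. The sources used here do not give read length, library kit, counting tool, gene annotation, or the handling of strand and of reads with several matches. Total counts ranged from 6846471 to 9816124 per library.

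All 52636 rows were fitted with edgeR 4.0.16 (R 4.3.3). The filterByExpr step (groups as design, 10 as the count minimum) kept 13958 genes. Libraries were scaled by TMM, 1 mean per group was fitted with 12 residual degrees of freedom, and 7 contrasts were tested by the robust two-sided quasi-likelihood F-test. P-values were adjusted by Benjamini-Hochberg over all genes tested, and genes under 0.05 were called. Fold changes are on the log2 scale with SE, and CPM are mean ± SD. Labels do not say that replicates are separate animals, so p-values measure the spread between these samples. Shares and ratios were tested by two-sided exact permutation. Nuclear copies were found with BLAST 2.17.0 among GENCODE M21 transcripts at 90% identity or more over at least 50 bases. Matches to genes on chromosome 18 were left out, so the copies and shared bases given here do not cover that chromosome. The fit was tested on simulated data.

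The members, the 15 gene lists and the choice of which genes to name were all made with earlier results of these data known. All mitochondrial rRNA and protein-coding genes and the tested tRNA genes are named. From other lists, the largest 2 rises and 2 falls that passed are named, or the smallest p, and not all of them are described. Alternatives were other scalings (DESeq2 size factors, upper-quartile, plain totals, TMM without the mitochondrial genes), other filters, DESeq2 1.42.0, limma-voom (limma 3.58.1), the compared groups alone, a replicate block, a threshold of 0.01, other numerators and denominators of the share, and leaving out each library. A denominator without CT010467.1 was added after seeing the data.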

Additional observations from a re-analysis of the deposited data

Results flagged for a closer look

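The KO difference in the mitochondrial share of counts ran opposite ways in different settings. H-KO differed by -3.13 percentage points from the mean of H-WT (4.72% in H-KO and 7.85% in H-WT), with all 3 libraries below it. BH-HF-KO differed by 1.39 percentage points from the mean of BH-HF-WT (8.96% in BH-HF-KO livers, 7.56% in BH-HF-WT livers), with all 3 libraries above it. The mRNA share moved likewise, by -2.44 percentage points in H-KO and 1.29 in BH-HF-KO. The rRNA share moved by -0.686 percentage points in H-KO and -0.440 in BH-KO, with all libraries of both below their WT mean, and by 0.0967 in BH-HF-KO, with all 3 above. These differences between settings were not tested for the shares. For single genes, the KO effect in BH-HF minus that in BH called 0 of 14 with all libraries and 10 without BH-KO replicate 1.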

How the results depend on the processing

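No result that passed its threshold reversed under the alternatives run, while mt-Tp in H-KO, which did not pass, went to 0.05 with plain totals. Values below are log2 differences of the mitochondrial share unless named otherwise. For H-KO against H-WT (-0.73 with all choices as reported), the rRNA genes alone gave -2.21, the TMM-scaled total -1.24 and the DESeq2 size factor -1.24. For BH-KO against BH-WT (-0.38), the rRNA genes alone gave -1.15, and leaving out 1 library gave -0.93 (without BH-KO replicate 1) to -0.14. For BH-HF-WT against BH-WT (0.012), mRNA alone gave 0.091, rRNA alone -0.89, the TMM-scaled total 0.079 and the DESeq2 size factor 0.096. Over the 3 settings (-0.34), rRNA alone gave -1.10, a total less the 10 most abundant nuclear genes -0.40, the TMM-scaled total -0.61 and the DESeq2 size factor -0.62, all of which passed. Leaving out 1 library gave -0.48 to -0.25 and passed without BH-KO replicate 1 (-0.48) or BH-HF-KO replicate 3 (-0.36). Of mitochondrial genes called in H-KO (11), plain totals gave 3, a threshold of 0.01 gave 3 and leaving out 1 library 3 to 9. Over all tested genes, 2662 were called lower as reported, 1294 with plain totals and 2147 to 2453 without 1 library. In BH-KO (1), no filter gave 0, limma-voom 2, the compared groups alone 0, a threshold of 0.01 gave 0 and leaving out 1 library 0 to 11, with 0 without BH-KO replicates 2 or 3 or BH-WT replicate 2. In BH-HF-WT against BH-WT (0), the compared groups alone gave 1. For the KO effect in BH-HF minus that in BH (0), leaving out 1 library gave 0 to 10. The cause of these changes was not tested. The log2 rRNA to mRNA ratio kept its side of the threshold over the 3 settings, from -0.90 to -0.77 without 1 library. Over the single genes called as reported, 144 values under alternatives kept the call and 48 lost it, and over those not called, 25 gained a call and 1514 did not. Replicate numbers did not pair the libraries, since same-numbered samples correlated at -0.238 to 0.0563 after removal of group means. With the replicate number as a block, 11 genes passed in H-KO, 1 in BH-KO and 0 in BH-HF-KO, and differences within numbers were -0.73, -0.51 and 0.24 for the share and -1.57, -0.96 and 0.046 for the ratio. With 3 libraries a group and 0 to 90 counts for genes in the copied stretch, small differences there were not detectable at this depth.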

Other observations

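Gm28438, the copy of mt-Nd3 on chromosome 1, varied in a way its neighbours did not. It had 378, 70 and 62 counts in BH-KO, against 80, 108 and 176 in BH-WT, and 32, 34 and 39 counts in H-KO, against 264, 296 and 94 in H-WT. mt-Nd3 itself had 9, 3 and 5 counts in BH-KO, against 2, 7 and 10 in BH-WT, and 1, 3 and 3 counts in H-KO, against 2, 5 and 8 in H-WT. Gm28438 was chosen after its values were seen.

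The ratio of mt-Rnr1 to mt-Rnr2 counts was 1.16, 0.518 and 0.496 in BH-KO, against 0.911, 0.840 and 1.02 in BH-WT, so BH-KO replicate 1 had the highest and replicates 2 and 3 the lowest values of the 18 libraries. It was 0.676 ± 0.0244 in H-KO and 0.782 ± 0.0505 in H-WT (SD, n = 3 each), without overlap. mt-Nd6, the minus-strand mRNA, had 0.0353 ± 0.00389 counts per count of the other mitochondrial mRNAs in BH-KO and 0.0278 ± 0.00154 in BH-WT, without overlap, and 0.0316 ± 0.00161 in H-KO and 0.0294 ± 0.00600 in H-WT, with overlap.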
